A study of Mus musculus with 8 samples.

Results

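Mtmr7 and 7 other genes that lie beside Cnot7 on mouse chromosome 8 were followed through all 8 libraries, 8 genes of the 23845 in the deposited table. They were listed by position, around the gene whose mRNA was targeted, because Mtmr7 stands in the authors' deposited tables as higher after the knockdown. The question was whether the genes next to it share that difference. The list was thus selected on the knockdown difference of Mtmr7 together with chromosome position, and knockdown differences of the members are given as descriptions with no test. The other members are Zdhhc2, Vps37a, Slc7a2, Pdgfrl, Mtus1, Pcm1 and Asah1.

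The RNA came from primary hippocampal neurons of mouse embryos at day 19, infected with lentivirus on days 13 to 15 in vitro and collected on days 17 to 19. The groups were CNOT7KD total poly(A) RNA, Scrambled total poly(A) RNA, CNOT7KD high temp (long tails) and Scrambled high-temp (long tails), with 2 libraries in each. CNOT7KD neurons carried a hairpin against CNOT7 and Scrambled neurons a scrambled hairpin, so both were infected. Poly(U) agarose bound the RNA. Total RNA was eluted at 75 °C, and the long-tail fraction at 75 °C after a 50 °C wash meant to take off tails under 50 nucleotides. The strain is not given. Nothing in the labels tells whether replicate libraries came from separate cultures, so p-values measure only the spread between these samples, which may be technical.

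Cnot7 encodes a catalytic subunit of CCR4-NOT, the complex that shortens poly(A) tails and so leads mRNAs into decay. An mRNA that is a target of such an enzyme can change in abundance, in tail length or in both. Genes that sit next to each other on a chromosome can share regulatory DNA, and those on opposite strands can overlap, so a difference at one gene of a locus is commonly compared with its neighbours. The listed genes have unrelated functions: a lipid phosphatase, an enzyme that attaches palmitate to proteins, an endosomal sorting subunit, an amino acid transporter, a receptor-like protein, a microtubule-binding protein, a centrosomal scaffold and a lysosomal hydrolase.

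Values are TPM, the usual length-corrected transcript abundance, a share within a library that was deposited rounded to whole numbers. Read depth is unknown and no counting interval is given. In bulk RNA, fewer cells of a type and less RNA per cell cannot be told apart. The rRNA precursor Rn45s took 2.90% to 18.6% of TPM. The 2 knockdown long-tail libraries were least alike, with r = 0.966 across genes, against 0.982 to 0.985 between libraries of the other groups. Neuronal markers were present (Camk2a at 918 to 1597 TPM), and so was the astrocyte marker Gfap (1488 to 3078 TPM). Microglia markers summed to at most 5 TPM in any library, with Cx3cr1, Aif1 and Tmem119 at 0 in all.

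In GRCm38, the build of mm10, the genes lie along chromosome 8 as follows. Zdhhc2 (40423815 to 40510268, plus strand) comes first, then Cnot7 (40492540 to 40515847, minus), Vps37a (40511783 to 40551134, plus) and Mtmr7 (40551095 to 40634797, minus). After them come Slc7a2 (40862396 to 40922308, plus), Pdgfrl (40926212 to 40990785, plus) and Mtus1 (40990914 to 41133726, minus). Pcm1 (41239752 to 41332344, plus) and Asah1 (41340197 to 41374773, minus) close the row. All are protein-coding in GENCODE release M21. The start site of Mtmr7 is 119.0 kb from that of Cnot7, that of Vps37a 4.1 kb and that of Asah1 858.9 kb.

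Among the listed genes and Cnot7, those next to each other on opposite strands overlap at 3 places. In GENCODE the exons of Zdhhc2 and Cnot7 share 247 bases, 4.47% of the exonic bases of Zdhhc2, while their RefSeq spans share 0. Cnot7 and Vps37a are divergent, with 4065 bases of shared span but 0 shared exonic bases. Vps37a and Mtmr7 converge and share 40 exonic bases at their ends, 0.627% of the exonic bases of Vps37a and 0.898% of those of Mtmr7. In RefSeq the span shared by Vps37a and Mtmr7 is longer, 2936 bases. Unlisted GENCODE entries on the opposite strand overlap more exonic bases at other members. Gm26584 shares 635 with Slc7a2, while the antisense entries B430010I23Rik, Gm16192 and Gm16193 share 612, 394 and 0 with Mtus1. Neither the annotation behind the deposited values nor the use of strand in counting is stated in the labels. Without strand, reads from such overlaps cannot be told apart.

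The targeted gene checks the labels. Cnot7 was at 12 and 16 TPM in knockdown total RNA, against 42 and 36 TPM in scrambled total RNA. Long-tailed Cnot7 was at 9 and 11 TPM in knockdown neurons, against 28 and 31 TPM in scrambled neurons. The groups did not overlap in either fraction.

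Mtmr7, a myotubularin-related phosphatase that removes phosphate from phosphoinositides and is known from brain, stood at about 3 times its control level in total RNA. It was at 30 and 24 TPM in knockdown total RNA, against 9 and 8 TPM in scrambled total RNA. Both knockdown libraries were above both scrambled ones. The means were 27 ± 4.24 TPM in knockdown and 8.5 ± 0.707 TPM in scrambled neurons (SD, n = 2 each), a ratio of 3.18. Rounding to whole TPM allows that ratio to lie between 2.94 and 3.44. On the log2(TPM + 1) scale, which understates the change of low genes, the difference was 1.55 with a standard error of 0.176. It ranked 5 from the top among the 13681 genes whose mean reached 1 TPM.

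Among long-tailed RNA Mtmr7 was at 20 and 19 TPM in knockdown neurons, against 9 and 7 TPM in scrambled neurons. The groups again did not overlap, with a ratio of means of 2.44 and a log2 difference of 1.20 (SE 0.176), rank 21. Without knockdown long-tail library 2 the log2 difference was 1.23. The authors' deposited tables give Mtmr7 a log2 fold of 1.45 in total RNA and 1.17 in long tails, with the sign turned so that positive is higher in knockdown. Mtmr7 is the 1 member of 8 that stands in each of those deposited tables. The genes listed there as higher make up 0.526% of the 13681 in total RNA and 0.460% in long tails, and those listed as lower, 0 members among them, 0.234% and 0.249%. Since these tables chose Mtmr7, nothing is read from that count.

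**Figure D1:**
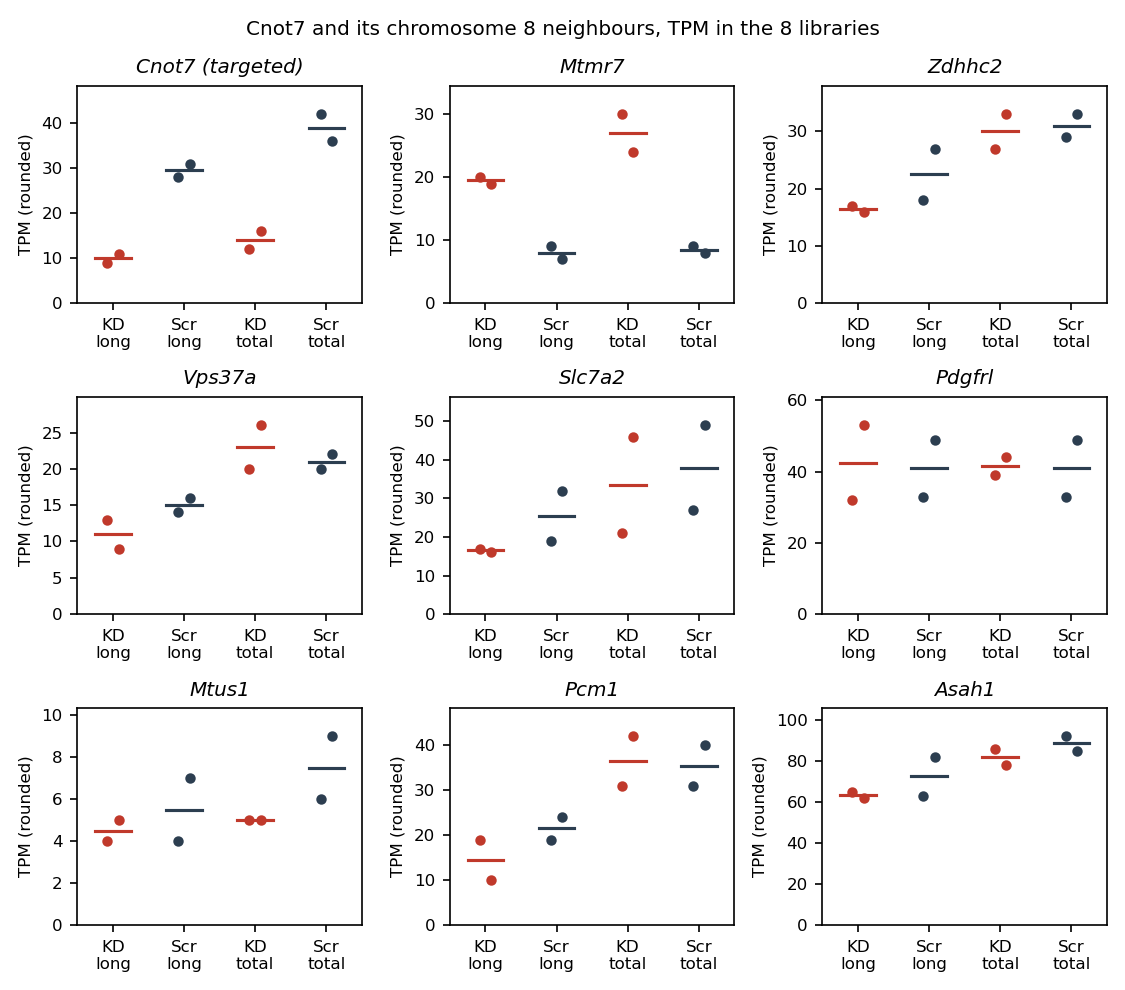
TPM of Cnot7 and its 8 listed neighbours in each of the 8 libraries. The x axis gives the groups (KD, CNOT7 knockdown, red; Scr, scrambled, dark blue; long, long-tail fraction), points are libraries and lines are group means of 2; the y axis is rounded TPM from 0 with its own range per gene. Mtmr7 lies at 19 to 30 TPM in the 4 knockdown libraries and at 7 to 9 TPM in the 4 scrambled ones, and Cnot7 has the opposite order.

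Zdhhc2 and Vps37a, the members whose start sites are nearest to that of Cnot7, had much the same level in knockdown and scrambled total RNA. Zdhhc2 encodes a palmitoyltransferase of dendrites that acts on postsynaptic scaffolds. It was at 27 and 33 TPM in knockdown total RNA, against 29 and 33 TPM in scrambled total RNA. The groups overlapped, and the log2 difference was −0.05 (SE 0.218).

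Vps37a, a subunit of ESCRT-I, which sorts ubiquitinated cargo into multivesicular bodies, converges on Mtmr7. It was at 20 and 26 TPM in knockdown total RNA, against 20 and 22 TPM in scrambled total RNA. These groups overlapped too, with a log2 difference of 0.12 (SE 0.217).

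In long tails both stood lower in the knockdown. Zdhhc2 was at 17 and 16 TPM in knockdown long tails, against 18 and 27 TPM in scrambled long tails. Vps37a was at 13 and 9 TPM, against 14 and 16 TPM. The groups did not overlap for either gene, though each is separated by a single unit of rounded TPM. The log2 differences were −0.40 (SE 0.218) for Zdhhc2 and −0.43 (SE 0.217) for Vps37a. Without knockdown long-tail library 2 they were −0.36 and −0.19, and without scrambled long-tail library 2 that of Zdhhc2 was −0.12.

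Slc7a2 and Pdgfrl, the next genes beyond Mtmr7, differed more between libraries of a group than between groups in total RNA. Slc7a2, which carries arginine and other cationic amino acids, was at 21 and 46 TPM in knockdown total RNA, against 27 and 49 TPM in scrambled total RNA. Library 2 was the high one in both groups, and the log2 difference of −0.22 was smaller than its standard error of 0.474. In long tails Slc7a2 was at 17 and 16 TPM in knockdown neurons, against 19 and 32 TPM in scrambled neurons. There the groups did not overlap (−0.55, SE 0.474), but the difference was −0.19 without scrambled long-tail library 2 and −0.92 without library 1.

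Pdgfrl, a protein related to the extracellular part of PDGF receptors, was at 39 and 44 TPM in knockdown total RNA, against 33 and 49 TPM in scrambled total RNA. The knockdown values lay inside the scrambled ones. In the long-tail fraction Pdgfrl was at 32 and 53 TPM in knockdown neurons, against 33 and 49 TPM in scrambled neurons. There the scrambled values lay inside the knockdown ones. The log2 differences (SE 0.332 each) were 0.04 for total RNA and 0.03 for long tails.

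Mtus1, Pcm1 and Asah1 lie farthest from Cnot7. Mtus1 encodes a microtubule-associated protein that binds the angiotensin AT2 receptor, and it had the lowest level of the 8 genes. It was at 5 and 5 TPM in knockdown total RNA, against 6 and 9 TPM in scrambled total RNA. The groups did not overlap, but 1 TPM separates them and the log2 difference of −0.48 has a standard error of 0.282. It was −0.22 without scrambled total library 2 and −0.74 without library 1. In long tails Mtus1 was at 4 and 5 TPM in knockdown neurons, against 4 and 7 TPM in scrambled neurons, and the groups overlapped.

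Pcm1, the scaffold of centriolar satellites, was at 31 and 42 TPM in knockdown total RNA, against 31 and 40 TPM in scrambled total RNA. These are nearly the same values in both groups (log2 difference 0.03, SE 0.335). Its long-tailed RNA was at 19 and 10 TPM in knockdown neurons, against 19 and 24 TPM in scrambled neurons. The log2 difference there was −0.59 (SE 0.335), and −0.16 without knockdown long-tail library 2, the library at 10 TPM.

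Asah1, acid ceramidase of the lysosome, had the highest level of the 8 genes. It was at 86 and 78 TPM in knockdown total RNA, against 92 and 85 TPM in scrambled total RNA. Its long-tailed RNA was at 65 and 62 TPM in knockdown neurons, against 63 and 82 TPM in scrambled neurons. Both pairs of groups overlapped, with log2 differences (SE 0.151 each) of −0.11 for total RNA and −0.18 for long tails.

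Of the 8 genes, Mtmr7 is the one whose knockdown libraries lay above the scrambled libraries in each fraction. In total RNA 1 of 8 members was higher without overlap (Mtmr7; 8.68% of the 13681 genes were) and 1 was lower (Mtus1; 20.1% of all). In long tails 1 was higher (Mtmr7; 8.91% of all) and 3 were lower (Zdhhc2, Vps37a and Slc7a2; 17.1% of all). The list was drawn up with the knockdown differences known, so nothing is read from these counts. The other 7 members had log2 differences between −0.48 and 0.12 in total RNA, with a median of −0.05, against −0.07 for all 13681 genes. In long tails they ran from −0.59 to 0.03, with a median of −0.40, against −0.10 for all genes. Single libraries decide much of these medians. Without scrambled long-tail library 2 the long-tail median of the 7 was −0.12, against −0.0021 for all genes. In total RNA, leaving out 1 library put it between −0.18, without knockdown total library 2, and 0.18, without scrambled total library 2.

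Other expressed genes around Cnot7 lay well below Mtmr7 in their difference. The table has 51 entries with a start site within 5 Mb of that of Cnot7, of which 21 passed the mean of 1 TPM. Besides Cnot7 and the 8 members, 11 reached a mean of 5 TPM. In total RNA 2 of the 11 had a difference above 0 and 9 below, from −0.37 to 0.21. Their libraries were higher without overlap for 0 of the 11 and lower for 2, beside 8.68% and 20.1% of all genes. In long tails 1 of the 11 was above 0 and 10 below, from −0.69 for Fat1 to 0.52 for Lonrf1, both named after their values were seen. There 1 of the 11 was higher without overlap (Lonrf1, at 11 and 10 TPM in knockdown, against 7 and 7 TPM in scrambled neurons) and 3 were lower, beside 8.91% and 17.1% of all genes.

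The genes just outside the listed stretch overlapped between groups or stood lower. Micu3, a regulator of mitochondrial calcium uptake just outside Zdhhc2, was at 31 and 38 TPM in knockdown total RNA, against 29 and 33 TPM in scrambled total RNA. Frg1, next to Asah1, was at 39 and 37 TPM, against 44 and 49 TPM. The log2 differences were 0.15 for Micu3 (SE 0.204) and −0.28 for Frg1 (SE 0.297). Farther out, those of Tusc3, Fat1 and Cyp4v3 in total RNA were −0.17, −0.10 and −0.37, and that of AI429214, at a mean of 4.125 TPM, was 0.13. In long tails AI429214 was at 0.61 (SE 0.288), with 4 and 6 TPM in knockdown against 2 and 4 TPM in scrambled neurons, which overlap. There Micu3, Frg1, Tusc3, Fat1 and Cyp4v3 were at −0.28, −0.25, −0.27, −0.69 and −0.50. Tusc3 and Fat1 were lower without overlap. Between Mtmr7 and Pcm1 the table also has the Adam genes Adam24, Adam25, Adam20 and Adam39 and the antisense entry B430010I23Rik, all at 0 TPM. Fgl1 reached at most 1 TPM.

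**Figure D2:**
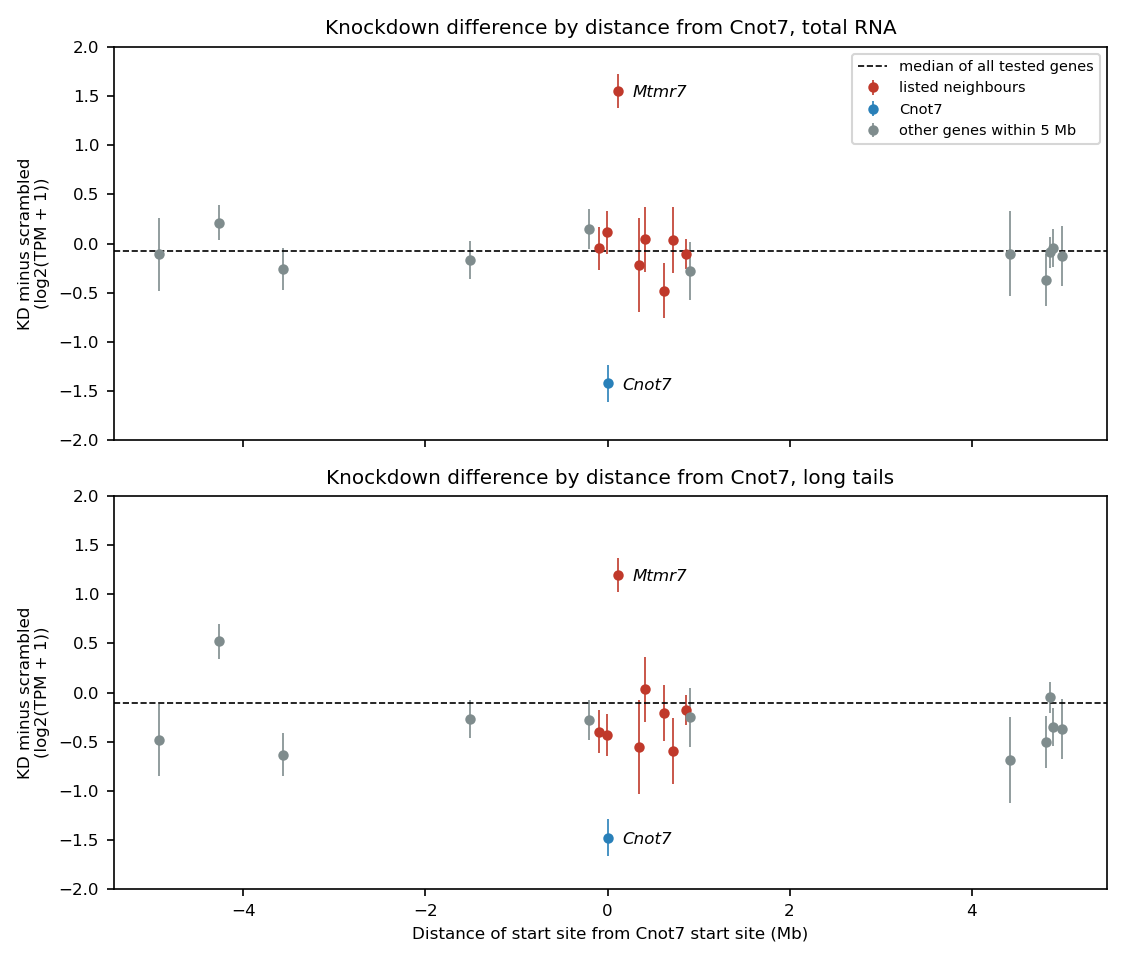
Knockdown minus scrambled difference on the log2(TPM + 1) scale (y axis) against the distance of each gene's start site from that of Cnot7 in Mb (x axis), in total RNA (top) and long tails (bottom). Points are genes whose mean reached 5 TPM, bars are standard errors from the model over all 8 libraries, and the dashed line is the median of all 13681 genes; Mtmr7 lies at 1.55 and 1.20 while the other listed neighbours lie between −0.59 and 0.12.

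The 13 other myotubularins, relatives of Mtmr7, lay near or below 0. In total RNA 3 were above 0 and 10 below, from −0.52 to 0.25, with a median of −0.09. In long tails all 13 were below 0, from −0.89 to −0.06, as were 61.2% of all genes. Their median there was −0.28, against −0.10 for all genes. Libraries were lower without overlap for 5 of the 13 in total RNA and 6 in long tails, beside 20.1% and 17.1% of all genes. They were higher for 2 and 0, beside 8.68% and 8.91%. The limma model over all genes called 0 of the 13 at an adjusted p under 0.05 in either fraction, as it called 0% of all genes. At an unadjusted p under 0.05 there were 0 of 13 in total RNA, beside 6.34% of all genes, and 3 of 13 in long tails, beside 8.72%. Mtmr9, a catalytically inactive member known to bind Mtmr7, was at 78 and 87 TPM in knockdown total RNA, against 69 and 69 TPM in scrambled total RNA. The groups did not overlap, with a log2 difference of 0.25 (SE 0.241). In long tails Mtmr9 was at 52 and 34 TPM in knockdown neurons, against 39 and 53 TPM in scrambled neurons, and there they overlapped.

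Mtmr6, another partner of Mtmr9, was at 76 and 79 TPM in knockdown total RNA, against 74 and 77 TPM in scrambled total RNA, with overlap. Sbf1, an inactive member, was at 89 and 77 TPM, against 90 and 84 TPM, also with overlap. The lowest differences, named after their values were seen, were those of Mtmr4 in total RNA (−0.52, SE 0.215) and of Sbf2 in long tails (−0.89, SE 0.284).

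**Figure D3:**
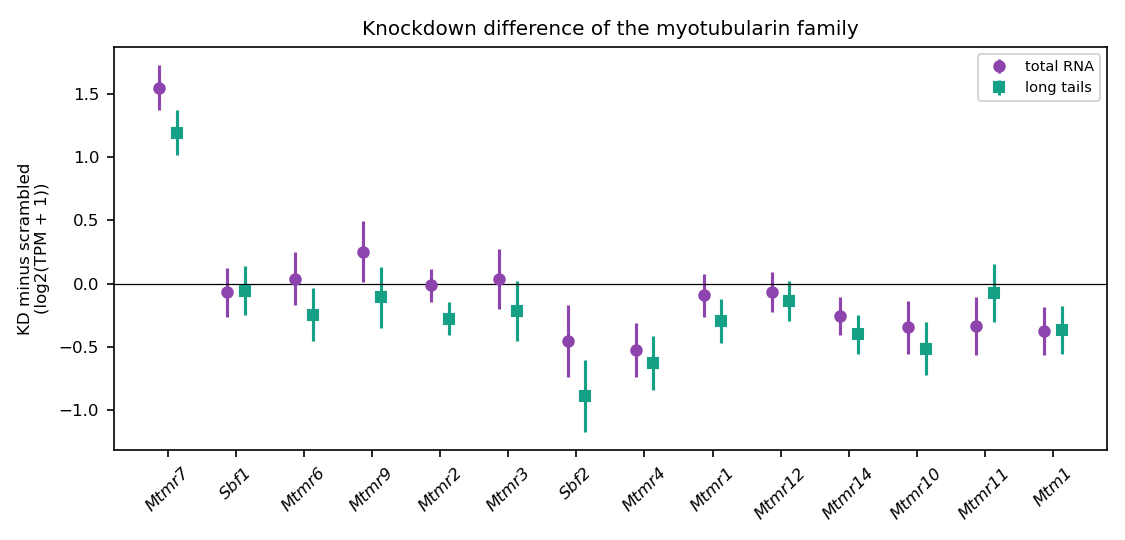
Knockdown minus scrambled difference (y axis, log2(TPM + 1)) for Mtmr7 and the 13 other myotubularins (x axis, the others by falling mean TPM) in total RNA (circles) and long tails (squares). Bars are standard errors from the model over all 8 libraries; the others lie between −0.89 and 0.25, and Mtmr7 at 1.55 and 1.20.

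Relatives of the other members gave 0 calls by limma in either fraction. At an unadjusted p under 0.05 the palmitoyltransferases, the longest of these lists, had 4 of 20 in total RNA and 3 of 20 in long tails. Ceramidases and sphingolipid hydrolases had 2 of 7 and 1 of 7, and cationic transporters 0 of 4 and 1 of 4. ESCRT-I subunits had 1 of 8 and 0 of 8, and centrosomal and satellite proteins 1 of 12 in each. The PDGF list and Mtus2 had none. The shares of all genes were 6.34% and 8.72%. The lowest palmitoyltransferase in either fraction, named after its values were seen, was Zdhhc6, at −0.75 in each (SE 0.170). Of 20 tested palmitoyltransferases besides Zdhhc2, 7 were above 0 and 12 below in total RNA (median −0.04), Zdhhc8 for example at 83 and 59 TPM in knockdown, against 78 and 55 TPM in scrambled neurons. Of 8 other ESCRT-I subunits, 1 was above and 7 below (median −0.19). Its subunit Vps28 was at 246 and 173 TPM in knockdown total RNA, against 238 and 192 TPM in scrambled total RNA. Among 12 other centrosomal and satellite proteins the median was −0.10. Of 7 tested ceramidases and sphingolipid hydrolases besides Asah1, all 7 were below 0 in total RNA (median −0.27), as were 60.2% of all genes, and the libraries of 5 were lower without overlap, beside 20.1% of all genes. In long tails 6 of the 7 were below 0 (median −0.11), and 2 were lower without overlap, beside 17.1% of all genes. One of these was Smpd1, lysosomal acid sphingomyelinase, at 118 and 102 TPM in knockdown, against 149 and 134 TPM in scrambled total RNA. The 4 other cationic transporters had a median of −0.01, the 6 other PDGF receptors and ligands one of −0.12, and Mtus2 was at −0.30.

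The genes most like Mtmr7 over the 8 libraries were not its neighbours. By Pearson correlation of log2(TPM + 1) among 11081 other genes whose mean reached 5 TPM, the highest that are reported here were Ablim3 (r = 0.981) and Fbxl16 (r = 0.977). These are descriptions, as the libraries share 2 groups of neurons and the value rests on the step between them. Ablim3, an actin-binding LIM protein, was at 16 and 16 TPM in knockdown total RNA, against 6 and 6 TPM in scrambled total RNA. Fbxl16, an F-box protein, was at 468 and 353 TPM, against 165 and 103 TPM. The 7 other members had r from −0.55 (Mtus1) to −0.01 (Vps37a) with Mtmr7, and Cnot7 had −0.87.

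Markers of other cells moved with the knockdown in part. The 8 oligodendrocyte lineage markers summed to 581 to 596 TPM in knockdown total RNA, against 1038 to 1199 TPM in scrambled total RNA. In long tails they summed to 483 to 609 TPM in knockdown, against 865 to 1193 TPM in scrambled neurons. All 8 were below 0 in both fractions, Mbp and Cnp among them, and none was at 0 TPM throughout. The 7 astrocyte markers summed to 3098 to 4701 TPM in knockdown total RNA, against 3731 to 4751 TPM in scrambled total RNA. Excitatory markers summed to 2237 to 3091 TPM, against 2347 to 3169 TPM, and inhibitory markers to 1166 to 1441 TPM, against 1260 to 1427 TPM. Such sums weigh the abundant genes most, and single markers went both ways. In total RNA 3 of 5 excitatory, 2 of 5 inhibitory and 1 of 7 astrocyte markers were above 0. Libraries were higher without overlap for 1, 1 and 0 of these, beside 8.68% of all genes. They were lower for 0, 2 and 3, beside 20.1%. The 9 endothelial, mural and fibroblast markers summed to 32 to 39 TPM in knockdown, against 40 to 45 TPM in scrambled total RNA, with Pecam1 and Cldn5 at 0. The part of these markers in the difference of Mtmr7 or Mtus1 was not tested.

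How the members divide between long tails and total RNA was not used to list them. For Mtmr7 the libraries compared are those whose knockdown difference chose it, so its values are given as descriptions. Most members had lower TPM in long tails than in total RNA, as most genes did (68.7% of the 13681 in knockdown and 74.3% in scrambled neurons), and no member passed the threshold. In knockdown neurons the log2 difference of long tails minus total was most negative for Pcm1, at −1.32 (SE 0.335, limma adjusted p = 0.140 over 13681 genes). It was −1.01 for Vps37a (SE 0.217, limma adjusted p = 0.140) and −0.82 for Zdhhc2 (SE 0.218, limma adjusted p = 0.140). The TPM behind these were 19 and 10 in long tails against 31 and 42 in total RNA for Pcm1, 13 and 9 against 20 and 26 for Vps37a, and 17 and 16 against 27 and 33 for Zdhhc2. The 3 genes had no overlap between fractions.

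Mtmr7 in knockdown neurons was at 20 and 19 TPM in long tails, against 30 and 24 TPM in total RNA (−0.44, SE 0.176). In scrambled neurons it was at 9 and 7 TPM in long tails, against 9 and 8 TPM in total RNA (−0.08, SE 0.176). For Pdgfrl the differences were −0.01 in knockdown and 0 in scrambled neurons, its levels being much the same in both fractions. Slc7a2 was at −0.88 in knockdown and −0.54 in scrambled neurons, Asah1 at −0.36 and −0.30, and Mtus1 at −0.13 and −0.40. Without scrambled long-tail library 1, the differences in scrambled neurons were −0.18 for Slc7a2, −0.11 for Asah1 and −0.065 for Mtus1. Slc7a2 was also at −0.33 in knockdown neurons without knockdown total library 2, and at −0.12 in scrambled neurons without scrambled total library 2.

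In scrambled neurons Pcm1 was again the most negative of the 8, at 19 and 24 TPM in long tails, against 31 and 40 TPM in total RNA (−0.70, SE 0.335, limma adjusted p = 0.396). Zdhhc2 was at −0.47 (limma adjusted p = 0.389), or −0.19 without scrambled long-tail library 1, and Vps37a at −0.46 (limma adjusted p = 0.392). The median over the 8 members was −0.63 in knockdown and −0.43 in scrambled neurons, against −0.22 for all genes in each. Without scrambled long-tail library 1 the scrambled median was −0.19, against −0.14 for all genes. Libraries did not overlap and were lower in long tails for 6 of 8 members in knockdown neurons, beside 40.0% of all genes, and for 4 of 8 in scrambled neurons, beside 39.6%. They were higher for 0 of 8 in either, beside 4.04% and 4.69% of all genes. The limma model called 0 of 8 members in either, as it called 0% of all genes. At an unadjusted p under 0.05 there were 4 of 8 members in knockdown neurons (Mtmr7, Zdhhc2, Vps37a and Pcm1), beside 26.0% of all genes. In scrambled neurons there were 0 of 8, beside 13.2%. Nothing is read from the place of Mtmr7 in these counts, as the difference that chose it used the same libraries. Without knockdown long-tail library 1, Pcm1 in knockdown neurons was at −1.75 and Vps37a at −1.25. Without library 2 they were at −0.89 and −0.77.

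**Figure D4:**
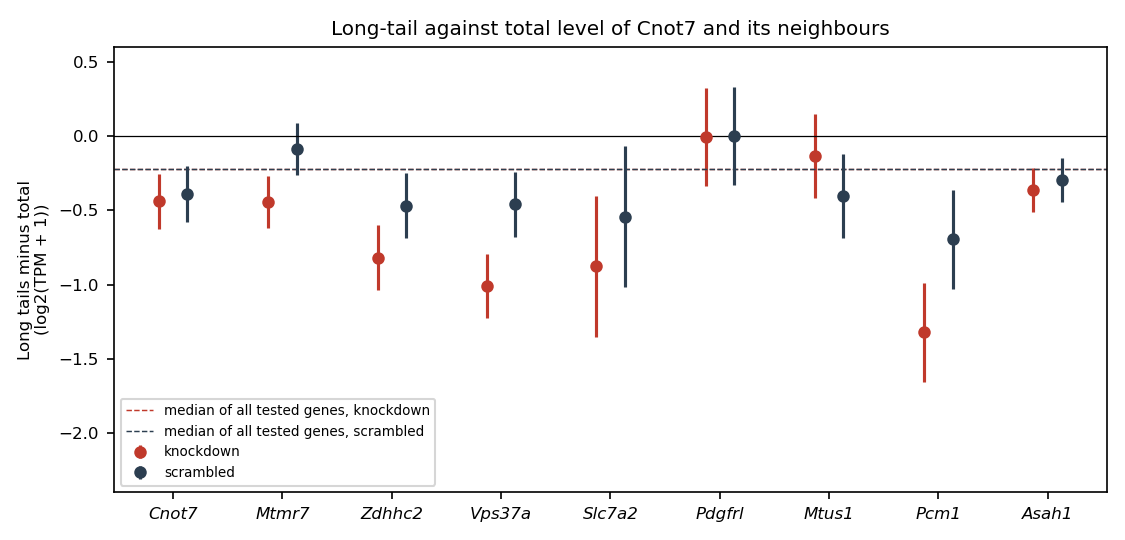
Long tails minus total difference on the log2(TPM + 1) scale (y axis) for Cnot7 and its 8 neighbours (x axis) in knockdown (red) and scrambled (dark blue) neurons. Bars are standard errors from the model over all 8 libraries and dashed lines are the medians of all 13681 genes, −0.22 in both; Pcm1 lies lowest at −1.32 and −0.70, and Pdgfrl at −0.01 and 0.

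Whether the long-tail share of a member differed with the knockdown was tested as an interaction: the difference that the knockdown made in long tails, less the one it made in total RNA. For Mtmr7 it was −0.36 (SE 0.248), a description only, since the difference that chose Mtmr7 used the same libraries. Pcm1 was at −0.63 (SE 0.473) and Vps37a at −0.55 (SE 0.308), and Mtus1 was the 1 member above 0, at 0.27 (SE 0.399), all with a limma adjusted p of 1.00. Without knockdown long-tail library 2, Pcm1 was at −0.20 and Vps37a at −0.31. Without scrambled long-tail library 1 Mtmr7 was at −0.20 and Mtus1 at −0.067. Of the 8 members, 0 had an unadjusted p under 0.05, beside 0.877% of all genes, and limma called 0 members, as it called 0% of all genes.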

How the data were processed

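Poly(A) RNA of cultured hippocampal neurons was measured in 8 libraries, 2 in each of 4 groups. The mm10 build and, among tools, RSEM, TopHat2, CASAVA, DESeq2 and DESeq are named in the submitters' processing notes, without versions or roles. Gene values as deposited are TPM, a relative abundance score that the authors rounded to whole numbers (23845 genes). The authors' deposited comparison tables hold, per the file headers, log2 fold changes, p-values and a mean signal of normalized counts, and only their log2 values are printed. Their sign was turned, since the 201 entries then match the direction in TPM.

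The 13681 genes averaging 1 TPM or more were analysed on the log2(TPM + 1) scale, and all 8 members passed. A limma model (version 3.58.1, R 4.3.3) of 4 group means with a mean-variance trend was fitted to the 8 libraries, tested two-sided in 5 contrasts with Benjamini-Hochberg adjustment at 0.05, and checked on simulated data. A planned count of members passing it in the knockdown contrasts is not given, as that difference chose the list. Exact permutation of 2 libraries against 2 cannot go below p = 0.333. Positions are from GENCODE M21 (GRCm38).

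The members and lists were chosen with earlier results of these data known. Named genes are the members, Cnot7, the 3 nearest tested genes on either side, up to 3 genes per family, up to 2 markers per cell type, both by mean TPM, and the 3 genes most like Mtmr7, of which 1 is not reported here. Other filters, pseudocounts, scalings, a replicate block and leaving out each library were tried.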

Additional observations from a re-analysis of the deposited data

How the results depend on the processing

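The knockdown difference of Mtmr7 in total RNA (1.55) lay between 1.40 and 1.71 over all 14 alternatives, and that in long tails (1.20) between 1.04 and 1.36. Leaving out 1 library at a time moved the number of members called for long tails minus total in knockdown neurons, through Pcm1 and Vps37a. The number called over all genes moved there too. Such fits leave 1 library in a group, so nothing is read from those counts. Over the 14 alternatives that difference ran from −1.75 to −0.89 for Pcm1 and from −1.25 to −0.66 for Vps37a. The number of members called did not move elsewhere in the comparison of fractions or the interaction, and the replicate block gave 0 members in each; the labels state no pairing. Over all genes, limma called 43 in total RNA and 54 in long tails without a filter, 6 and 5 at a mean of 5 TPM, 1 and 1 without Rn45s, and 4 and 1 with quantile normalization, against 0 and 0. Long tails minus total gave 56 in knockdown and 33 in scrambled neurons without a filter. Leaving out 1 library gave 0 to 32 calls in total RNA, 0 to 6 in long tails, 0 to 2104 for long tails minus total in knockdown neurons, 0 to 57 in scrambled neurons and 0 to 2 in the interaction. Quantile normalization moved the median of all genes by 0.11 for the knockdown difference in long tails, and by 0.25 in knockdown and 0.20 in scrambled neurons for long tails minus total, where 6 of 8 members lay below the median with and without it. It turned the sign for Mtmr7 in scrambled neurons (0.17) and for Pdgfrl (0.21) and Mtus1 (0.26) in knockdown neurons, and, in the knockdown difference, for Zdhhc2 in total RNA (0.022) and Mtus1 in long tails (0.040). Without Rn45s Pdgfrl was at 0.0045 for long tails minus total in knockdown neurons. Leaving out 1 library turned signs too: Mtmr7 in scrambled neurons ranged from −0.25 to 0.076 and Pdgfrl in knockdown neurons from −0.36 to 0.35, and the interaction ranged from −0.25 to 0.12 for Asah1, −0.36 to 0.35 for Pdgfrl, −0.88 to 0.21 for Slc7a2 and −0.067 to 0.61 for Mtus1. In the knockdown difference, leaving out 1 library turned the sign in total RNA for Zdhhc2, Vps37a, Slc7a2, Pdgfrl and Pcm1, within −0.77 to 0.33. In long tails it did so for Pdgfrl (−0.32 to 0.39), Mtus1 (−0.55 to 0.13) and Asah1 (−0.36 to 0.011). None of the turned values in the fraction comparison or interaction was called, and the cause was not tested. Rounding to whole TPM limits the low genes most, Mtus1 at 4 to 9 TPM above all.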

Other observations

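Several members differed between the libraries of a group by more than between knockdown and scrambled neurons. Pdgfrl was higher in library 2 than in library 1 in all 4 groups, by 0.17 to 0.71 on the log2 scale, a pattern that 9.94% of all tested genes share. Slc7a2 was higher in library 2 by 1.10 in knockdown and 0.84 in scrambled total RNA and by 0.72 in scrambled long tails, but not in knockdown long tails (−0.08). Mtmr7 was lower in library 2 in all 4 groups, by at most 0.32 in size, as were 8.60% of tested genes. Among the 7 members other than Mtmr7, pairwise correlations over the 8 libraries ran from −0.07 to 0.99 with a median of 0.68; all pairs share the same libraries and the same division into fractions. Tusc3, an oligosaccharyltransferase subunit, was at 260 and 236 TPM in knockdown total RNA, against 328 and 237 TPM in scrambled total RNA. It lies on the Zdhhc2 side of Cnot7, with the start sites 1510.0 kb apart.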
